A study of Mus musculus with 12 samples.

Results

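RNA of Sgpp2-/- mice on a high-fat diet (KO, 3 arrays) was compared with RNA of wild-type mice on the same diet (WT, 3 arrays), which together make up 6 of the 12 arrays of the series. The other 6 arrays, KO and WT on a normal diet with 3 arrays each, helped to estimate the spread and served as a second, separate reading of each genotype difference. All mice carried the strain label C57BL6. Each sample was hybridised to an Affymetrix mouse expression array, whose deposited values are log2 RMA intensities, so that a difference of 1 is a 2-fold change. Of 18193 genes with a probe set that names a single gene, the 15237 with a log2 value above 5 on at least 3 arrays were tested. The labels give neither age, sex, time on the diet nor the position of the deletion in Sgpp2, and they do not say whether the arrays of a group came from separate animals, so that the p-values measure only the spread between these arrays.

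Sgpp2 encodes sphingosine-1-phosphate phosphatase 2, which turns sphingosine-1-phosphate (S1P) back into sphingosine in the membrane of the endoplasmic reticulum (ER). S1P is made by sphingosine kinases, acts on G protein-coupled receptors at the cell surface and is broken down for good by S1P lyase, whereas sphingosine can re-enter ceramide synthesis. In pancreatic islets a high-fat diet raises the demand for insulin, to which β-cells are known to respond by making more proinsulin in the ER and by dividing. The title of the study names β-cell ER stress and proliferation, and the genotype difference on the high-fat diet is the comparison in which both would be read under dietary load.

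The labels name no tissue, and the title names pancreatic islets. On the 6 high-fat arrays the probe sets of islet hormone genes read near the top of the scale, with Iapp between 14.92 and 15.04, Ins2 between 14.36 and 14.71 and Gcg between 14.30 and 14.55. Genes of digestive enzymes of acinar cells, the exocrine cells around islets, read high too, with Cpa1 between 13.74 and 14.02. Alb, the liver's albumin, read 5.60 to 6.45 and Adipoq, a hormone of fat cells, 3.46 to 3.66, both below the array medians of 7.0 to 7.13. Values of different probe sets do not rank one gene's RNA against another's, so these levels say only that islet and exocrine markers were both read. In such bulk RNA, fewer cells of a type and less RNA per cell cannot be told apart. Eif2s3y, a Y-linked gene, lay between 11.89 and 12.46 on every high-fat array, and Xist, of the inactive X chromosome, between 5.01 and 6.74, highest on WT array 3. At a limma adjusted p under 0.05, 0 of 4 sex-linked genes tested passed, and 3 had higher means in KO. Y-linked Uty and Kdm5d were higher by 0.48 and 0.32 (limma adjusted p = 0.223 and 0.305), with overlapping arrays, and by 0.61 and 0.59 on the normal diet. Without WT high-fat array 2 both passed (limma adjusted p = 0.0292 and 0.0443). Of their other probe sets, 2 of Kdm5d and 1 of Uty were lower in KO, and 2 of Uty were higher.

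The arrays did not sort by genotype alone. WT array 2 correlated best with KO array 1 (r = 0.9954 over all genes tested), whereas its correlations with the other WT high-fat arrays were 0.9923 and 0.9912. On the main axis of a principal component analysis of the 6 arrays, which held 45.4% of the variance, the KO arrays scored 4.8, −0.2 and 28.1 and the WT arrays −15.9, 8.1 and −24.7. WT array 2 thus fell among the KO arrays, and KO array 3 lay farthest out. Where a count or a named gene's call turns on either array, the value without it is given too.

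The targeted gene was read first. Sgpp2 read 11.12, 11.11 and 11.02 on the KO arrays and 11.48, 11.46 and 11.57 on the WT arrays. Every KO array, all 3 of them, lay below every WT array, and WT array 2 lay on the WT side. The KO level was 74.9% of the WT level on the linear scale (log2 difference −0.42, SE 0.07, 95% confidence interval −0.58 to −0.26; limma adjusted p = 0.0824; exact two-sided permutation p = 0.1, the smallest that 3 arrays against 3 allow). The difference therefore missed the threshold of 0.05 over all genes, and it passed without WT array 2 (−0.44, adjusted p = 0.0383). The gene has 1 probe set on the array. No source used here says whether it reads the deleted stretch of Sgpp2, and outside that stretch it would not check the genotype label.

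Across all genes, 4 of 15237 changed at an adjusted p under 0.05 (0.0263%), 2 up (0.0131%) and 2 down (0.0131%). These were Armc9, Mcm4, D2hgdh and Col6a3. The fit was limma over all 12 arrays with Benjamini-Hochberg adjustment. A further 29 genes lay between 0.05 and 0.1, which makes 33 genes under 0.1, 19 higher and 14 lower in KO. The unadjusted p lay under 0.05 for 2036 genes (13.4%), with 955 higher (6.27%) and 1081 lower (7.09%) in KO. In 2260 genes (14.8%) the 3 KO arrays did not overlap the 3 WT arrays, 1114 higher (7.31%) and 1146 lower (7.52%) in KO. Most differences were small, with a median log2 size of 0.123. More than 2-fold differences were read for 33 genes, 17 higher and 16 lower, and 19 of them did not overlap. When every probe set was tested in place of 1 a gene, 96 of 35426 passed (0.271%), 36 up (0.102%) and 60 down (0.169%).

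Col6a3 had the largest of the 4 changes. It encodes the α3 chain of collagen VI, a microfibril of the matrix around cells. It read 6.90, 6.75 and 6.82 in KO, against 8.89, 8.17 and 9.55 in WT. The KO arrays lay close together, just below the array medians of 7.0 to 7.13, while the WT arrays spread over more than a log2 unit. The gene fell by 2.05 (SE 0.28, 4.14-fold, adjusted p = 0.0489). Its partner chains lay near 0, Col6a1 at a difference of 0.07 (SE 0.21) and Col6a2 at 0.09 (SE 0.19), with overlapping arrays.

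D2hgdh encodes the mitochondrial enzyme that oxidises D-2-hydroxyglutarate to 2-oxoglutarate. It read 11.14, 11.26 and 11.16 in KO, against 12.12, 12.34 and 12.76 in WT. No arrays overlapped, and it fell by 1.22 (SE 0.13, 2.32-fold, adjusted p = 0.0135). The fall was read by only 1 of its 2 probe sets: the other lay at 9.44, 9.52 and 9.48 in KO and at 9.31, 9.61 and 9.43 in WT.

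Armc9, a protein at the base of the primary cilium, rose. It read 9.53, 9.24 and 9.26 in KO, against 8.49, 8.20 and 8.26 in WT (log2 difference 1.03, SE 0.11, 2.05-fold, adjusted p = 0.0135). The gene has 6 further probe sets with lower signal, of which 5 were lower in KO, the most distant by −0.78 (6.65, 6.46 and 6.5 in KO, 7.08, 7.57 and 7.30 in WT), and 1 was higher. The direction for Armc9 thus depends on the probe set. The mean over its probe sets differed by −0.10.

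Mcm4, a subunit of the MCM helicase that opens DNA for replication, rose as well. It read 10.04, 10.15 and 10.35 in KO, against 9.26, 9.54 and 9.21 in WT, with no overlap (log2 difference 0.84, SE 0.10, 1.79-fold, adjusted p = 0.028). Its other probe set read 9.20, 9.13 and 9.34 in KO, against 8.92, 8.88 and 9.14 in WT, a difference of 0.25 with arrays that just overlap. Of these 4 genes Mcm4 was the only one away from chromosome 1, on chromosome 16.

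Each of the 4 calls turned on single arrays when the 12 arrays were left out in turn. Armc9 no longer passed without KO high-fat array 2 (adjusted p = 0.0648) or WT high-fat array 3 (adjusted p = 0.0770). D2hgdh no longer passed without KO high-fat array 2 (adjusted p = 0.0743) or KO high-fat array 3 (adjusted p = 0.0767). Mcm4 passed only without WT high-fat array 2, KO high-fat array 1 or KO normal array 1, and Col6a3 only without WT high-fat array 2, with adjusted p-values up to 0.183 and 0.184 otherwise. With the replicate number as a block over both diets, Mcm4 (adjusted p = 0.057) and Col6a3 (adjusted p = 0.0526) no longer passed either. Over the arrays left out the differences ranged from 0.75 to 0.94 in Mcm4 and from −2.40 to −1.71 in Col6a3.

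**Figure D1:**
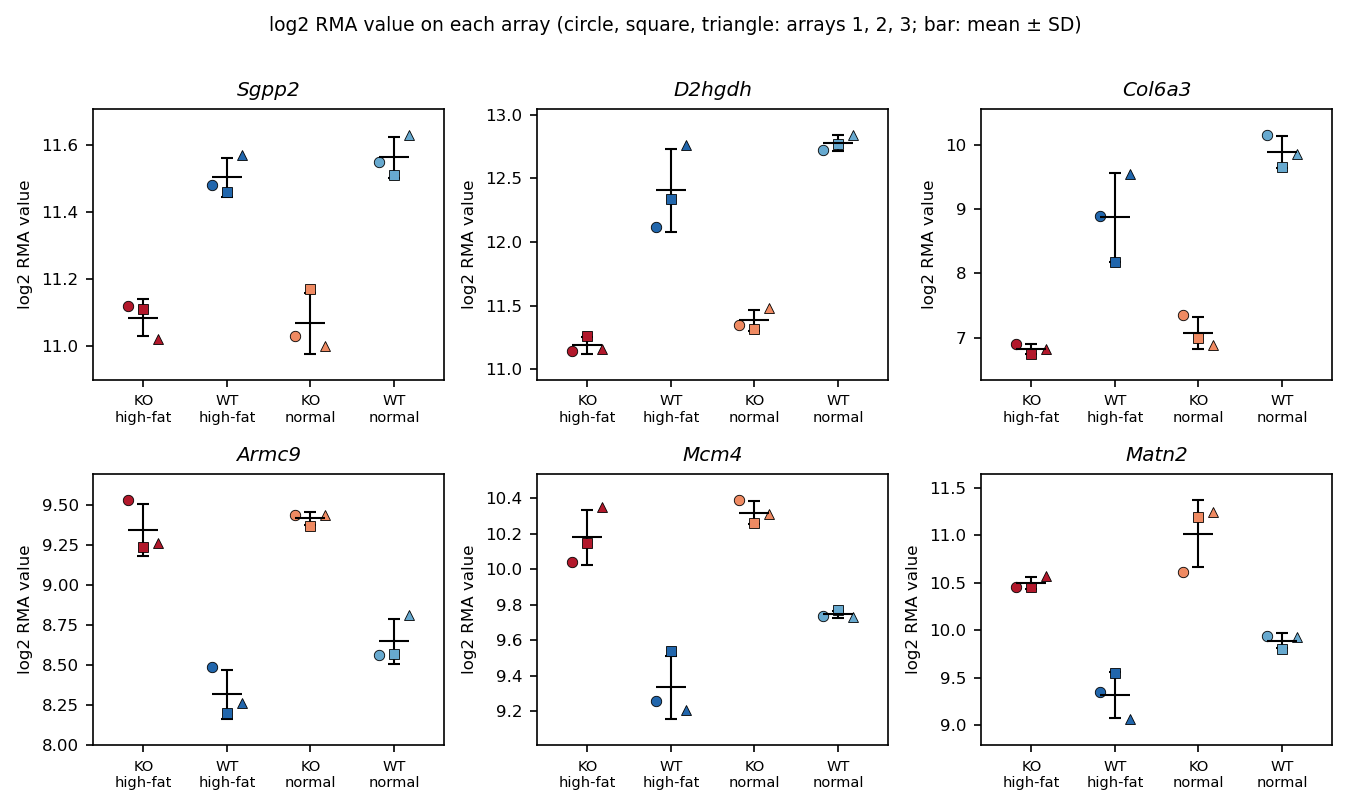
Log2 RMA value (vertical axis) of 6 genes on each array, with KO left of WT for the high-fat and then the normal diet; symbols are arrays 1 to 3 and bars the mean ± SD of 3 arrays. In all 6 genes the KO arrays lie apart from the WT arrays on the high-fat diet, which the naming rule required of Matn2. The WT values of Col6a3 are the most spread, from 8.17 to 9.55.

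Genes near Sgpp2 took up much of the top of the ranking. Col6a3, Armc9 and D2hgdh lie 102, 49 and 157 protein-coding genes from Sgpp2 on chromosome 1. Within 200 protein-coding genes on either side, 280 genes were tested. Of these, 1 rose and 2 fell, and 59 (21.1%) did not overlap between the genotypes, against 14.7% of genes on other chromosomes. Among the others, Ap1s3, the small subunit of a clathrin adaptor and only 7 genes away, had the largest difference of any gene named here. It read 8.52, 7.81 and 8.41 in KO, against 6.03, 6.04 and 6.30 in WT (2.12, SE 0.32, adjusted p = 0.0685). The levels in KO were thus 4.35-fold those in WT, with a wide gap between the groups.

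Further neighbours differed in both directions. Speg, a kinase of striated muscle, read 10.00, 9.77 and 9.52 in KO, against 7.94, 8.86 and 8.39 in WT (1.36, SE 0.21, adjusted p = 0.0685), and its 3 other probe sets were higher in KO too. Stk25, a Golgi-associated kinase, read 9.15, 9.06 and 9.97 in KO, against 10.67, 10.80 and 11.32 in WT (−1.54, SE 0.24, adjusted p = 0.0712; −1.82 and 0.0369 without KO array 3). Lrrfip1 was lower by −0.84 (adjusted p = 0.0972) and Rab17, a GTPase of epithelial membrane traffic, by −0.97 (adjusted p = 0.213), while Farsb, the next gene to Sgpp2, was lower by −0.31 with overlapping arrays. Raph1, Bzw1 and Cyp20a1 lay higher by 0.55, 0.57 and 0.45. Without WT array 2, Lrrfip1 (adjusted p = 0.0382), Farsb (adjusted p = 0.0363), Raph1 (adjusted p = 0.0445), Bzw1 (adjusted p = 0.0341) and Cyp20a1 (adjusted p = 0.0292) passed and Rab17 did not. Without KO array 3 none of these passed, with adjusted p-values from 0.178 in Lrrfip1 to 0.498 in Rab17. The neighbours from Lrrfip1 on were chosen after their values were seen. For genes of this stretch, the loss of Sgpp2 and a piece of chromosome that came with the knockout allele cannot be told apart.

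**Figure D2:**
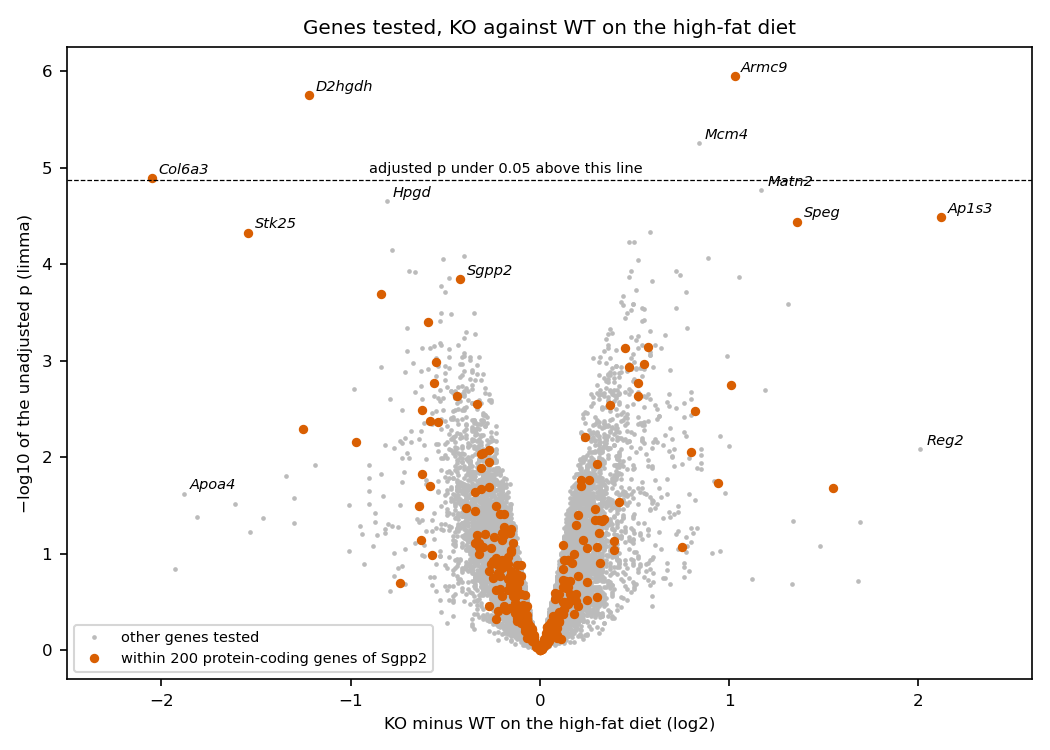
Each point is 1 of 15237 genes tested, with the KO minus WT difference on the high-fat diet (log2, horizontal) against −log10 of its unadjusted limma p (vertical); orange points lie within 200 protein-coding genes of Sgpp2 and the dashed line marks an adjusted p of 0.05. Of the 4 genes above the line, Armc9, D2hgdh and Col6a3 are orange and Mcm4 is grey.

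Outside that stretch, the genes with the smallest p included several regulators and enzymes that islets use. None of those below passed the threshold in the test of 1 probe set a gene. Matn2, matrilin 2 of the extracellular matrix, read 10.46, 10.46 and 10.57 in KO, against 9.35, 9.55 and 9.07 in WT (1.17, SE 0.16, adjusted p = 0.0513). Its other probe set was higher by only 0.31. Hpgd, the enzyme that inactivates prostaglandins, read 8.19, 7.77 and 7.78 in KO, against 8.69, 8.65 and 8.81 in WT (−0.81, SE 0.12, adjusted p = 0.0567), and its other probe set was lower by −0.54. The genotypes stood apart on all 6 arrays in both genes, which the rule for naming them required. Insm1, a zinc finger factor of endocrine cell differentiation, was higher by 0.52 (adjusted p = 0.0802), but its other probe set was lower by −0.36. Odc1, ornithine decarboxylase at the start of polyamine synthesis, was higher by 0.48 (adjusted p = 0.0824), while its 2 other probe sets differed by −0.05 and 0.01. Prss23, a serine protease, was higher by 1.05 (adjusted p = 0.0824), and by 0.37 and 0.28 in its other probe sets. When every probe set was tested, those of Matn2, Hpgd, Insm1 and Prss23 passed (limma adjusted p = 0.0242, 0.0323, 0.0472 and 0.0463). That of Odc1 did not (limma adjusted p = 0.0577).

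The rest of the 24 genes with the smallest p and no overlap had adjusted p-values up to 0.0824 as well. Higher in KO were the zinc finger genes Zfp182 (0.58) and Zfp141 (0.72), Sim1, a transcription factor of hypothalamic development (0.47), Fgl2, a fibrinogen-like protein (0.50), the ubiquitin ligase Trim23 (0.89), Bloc1s4, of a complex for lysosome-related organelles (0.74), and Pdcl, which helps to assemble G protein β subunits (0.47). Lower in KO were Cd86, a costimulatory protein of antigen-presenting cells (−0.78), Hsd17b7, an enzyme of cholesterol synthesis (−0.51), Narf (−0.69), Prcc (−0.40) and Frg2f1 (−0.66). Another probe set was lower in KO for Sim1 (−0.19), Bloc1s4 (−0.05), Zfp182 (−0.04) and Pdcl (−0.02), and the other one of Cd86 differed by −0.03. The remaining probe set of Zfp182 was higher in KO by 0.37. Together 15 of the 24 lay higher and 9 lower in KO, and 6 lay near Sgpp2.

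The same 24 genes were read again on the arrays of the normal diet. All 24 had the same sign there and 15 passed the threshold, out of 128 among all 15237 genes (0.84%). Both diets share 1 estimate of each gene's spread, so genes picked for a small p on one diet bring a small SE to the other. Nothing is therefore read from the share that passed. The share of all genes with the same sign on both diets is not given, so nothing is read from the signs either. The count of 128 itself ran from 2 to 223 when single arrays were left out. Same-numbered KO arrays of the diets deviated together (r = 0.29, 0.38 and 0.14 over all genes tested), and what the numbers mean is not stated. Prss23 was higher by 1.21 and Matn2 by 1.13 on the normal diet, close to the values on the high-fat diet. The other probe set of Matn2 overlapped there, with 9.17, 9.68 and 9.69 in KO, against 9.70, 9.17 and 9.36 in WT. Hpgd and Cd86 stood farther apart between the diets: Hpgd differed by −0.81 on the high-fat and −0.34 on the normal diet, and Cd86 by −0.78 and −0.29.

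**Figure D3:**
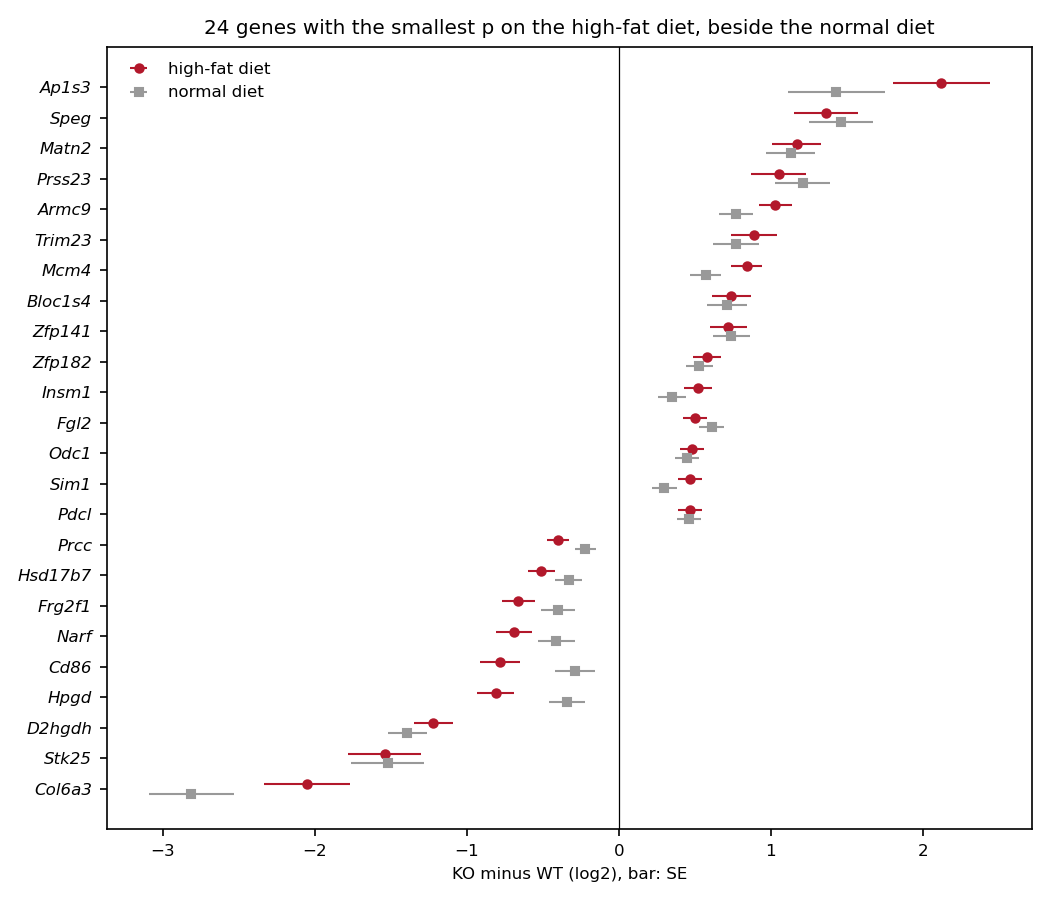
KO minus WT difference (log2, horizontal; bars are the SE from limma) of the 24 genes with the smallest p on the high-fat diet, with the high-fat value as a circle and the normal-diet value as a square. Each gene lies on the same side of 0 on both diets, from Ap1s3 at 2.12 and 1.43 to Col6a3 at −2.05 and −2.81.

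Whether the genotype difference itself changed with the diet was tested as an interaction. At an adjusted p under 0.05, 0 genes passed with limma (0.0%), the smallest adjusted p was 0.722, and 758 genes (4.97%) had an unadjusted p under 0.05. The count was 0 under every alternative run. Of the 24 genes, Hpgd had the lowest interaction p (adjusted p = 0.922). Il1b, the gene of interleukin-1β, read 7.72, 7.60 and 7.65 in KO, against 7.40, 7.33 and 7.28 in WT. It was higher in KO by 0.32 on the high-fat diet and differed by −0.49 on the normal diet (interaction adjusted p = 0.836).

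The 128 genes that passed on the normal diet, a set that depends on single arrays as given above, were then followed on the high-fat arrays, with each gene's deviation from its mean over the 6 arrays turned to the direction seen on the normal diet. The mean score was 0.15, 0.17 and 0.23 on the KO arrays and −0.23, −0.10 and −0.22 on the WT arrays. The groups did not overlap, and WT array 2 stood closest to the KO side. The 11 of these genes near Sgpp2 scored 0.51, 0.47 and 0.51 in KO and −0.57, −0.33 and −0.60 in WT, and the other 117 scored 0.12, 0.14 and 0.20 in KO and −0.20, −0.08 and −0.19 in WT. In all, 116 of 128 kept their sign, but the share over all genes is not given beside this count, so nothing is read from it. The median difference of the 128 along their normal-diet sign was 0.341 on the high-fat diet, against 0.59 on the normal diet. Since the genes were picked for their normal-diet values, the smaller value on the other arrays has no test here.

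Leaving out WT array 2 changed the count more than any other alternative run. Without it 272 genes passed (1.79%), 176 up (1.16%) and 96 down (0.63%), among them the 4 genes above and all 24 of the ranked genes. Of the 272, 34 lay on chromosome 1, 21 of them near Sgpp2, and 21 differed more than 2-fold. Also called on the normal diet were 46 genes, all with the same sign, which is 16.9% of the 272 and 35.9% of the 128. Here too the diets share 1 estimate of each gene's spread, so nothing is read from these shares. The comparison without WT array 2 rests on 2 WT arrays and was made because that array stands apart, so its count describes how far 1 array decides the result. Leaving out KO array 2 left 0 genes, with limma on the remaining 11 arrays.

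Cell division is a theme of the title. Of 37 tested genes of DNA replication, 1 (Mcm4) rose, 0 fell and 27 had higher means in KO. Of all genes tested 43.3% had higher and 56.7% lower means in KO. The median difference of the list was 0.140, against −0.029 over all genes, and 0.054 without KO array 3. On each array the list's mean deviation from the genes' own 6-array means was −0.08, 0.05 and 0.29 in KO. In WT this deviation was −0.14, −0.10 and −0.02, so KO array 1 lay within the WT range. On the normal diet the median was −0.221, with 10 of the 37 genes higher in KO. WT array 1 stood apart there, with a mean level of the list of 9.15. The other WT normal arrays read 8.65 and 8.66 and the KO normal arrays 8.64, 8.68 and 8.70. Members named in this and the later lists beyond the 3 with the smallest p were chosen for their known roles with their values in view. In 10 of the 37 genes (27.0%) the arrays did not overlap, against 14.8% of all genes, 9 higher (7.31% of all genes) and 1 lower (7.52%) in KO. Ccne2, cyclin E2 of the G1 to S transition, read 9.80, 9.85 and 10.12 in KO, against 9.40, 9.72 and 9.27 in WT (0.46, adjusted p = 0.204; 0.59 and 0.0482 without WT array 2). Orc1, the largest subunit of the origin recognition complex, read 5.51, 6.24 and 5.51 in KO, against 5.0, 5.2 and 5.25 in WT (0.60, adjusted p = 0.213), close to the filter. Of the MCM subunits other than Mcm4, Mcm2, Mcm3 and Mcm5 differed by 0.13, 0.18 and 0.18 and Mcm6 and Mcm7 by −0.12 and −0.18, all with overlapping arrays.

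Many replication genes are known targets of E2F factors. The promoter of Orc1 is shown because it is the member with the smallest p among those that hold an E2F match and have a promoter in the table used. The stretch before its start site, on chr4:108579397-108579453, plus strand, RefSeq build GRCm38.p6, carries an E2F match in capitals.
Orc1: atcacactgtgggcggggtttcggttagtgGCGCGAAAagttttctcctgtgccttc
The letters searched on both strands were TTTCGCGC, TTTGGCGC, TTTCCCGC and TTTGCCGC within 250 bases before the start. They occurred in 9 of 30 replication genes with a promoter in the table (30.0%) and in 1.86% of all 32851 promoters. Here and below, a gene of a list counts when any of its promoters matches, whereas the share over all promoters counts each promoter. A match is a description of the letters only.

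Mitosis genes lay higher in KO almost throughout, but through 1 array. Of 36 tested, 35 had a higher KO than WT mean, and the median difference was 0.460. The arrays of the genotypes overlapped in all 36, 0 passed the threshold, and 1 had an unadjusted p under 0.05. That one was Ect2, a regulator of cytokinesis, at 8.75, 9.13 and 10.49 in KO, against 8.40, 8.94 and 8.08 in WT (0.98, SE 0.37, adjusted p = 0.31). Hmmr, a spindle protein, read 8.28, 8.99 and 10.35 in KO, against 8.27, 8.77 and 7.84 in WT. KO array 3 was highest in each, and KO array 1 lay within the WT range of both. The list score averages, on each array, how far the 36 genes lay from their own 6-array means. It was −0.33, 0.08 and 0.93 in KO and −0.27, −0.03 and −0.37 in WT. Without KO array 3 the median was 0.10. On the normal diet the median was −0.261, where WT array 1 had the highest mean level of the list, 8.25, against 7.28 to 7.51 on the KO arrays. Mki67, the usual marker of dividing cells, read 9.05, 10.09 and 11.09 in KO, against 9.74, 9.81 and 9.41 in WT, a difference of 0.43 that was −0.08 without KO array 3. Cell cycle entry genes showed little: of 21 G1 cyclins and CDK inhibitors 0 passed and 15 were higher, with a median of 0.070, and Ccnd1, cyclin D1, differed by 0.00 and Cdkn1a, the inhibitor p21, by 0.01.

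ER stress is the other theme of the title. Of 26 tested sensors and effectors of the unfolded protein response, 0 passed, 18 had lower means in KO, and the median was −0.066, against −0.029 over all genes. In 6 (23.1%) the arrays did not overlap, against 14.8% of all genes, 5 of them lower in KO (7.52% of all genes). Sesn2, a stress-induced sestrin, read 9.26, 9.09 and 9.07 in KO, against 9.75, 9.59 and 9.63 in WT (−0.52, SE 0.10, adjusted p = 0.108; −0.55 and 0.0475 without WT array 2), and was lower on the normal diet too (−0.66, adjusted p = 0.0272). Eif2ak3, the sensor kinase PERK, read 11.19, 10.99 and 11.03 in KO, against 11.41, 11.33 and 11.76 in WT (−0.43, SE 0.12, adjusted p = 0.191). In these probe sets both genes separated the genotypes on all 6 arrays. The other probe set of Sesn2 differed by 0.11 with overlapping arrays, and those of Eif2ak3 by 0.18 and −0.10. The sensors Ern1 (IRE1α) and Atf6 differed by 0.08 and −0.16, the transcription factors Xbp1 and Atf4 by −0.05 and −0.10, and Ddit3, the gene of CHOP, by −0.21 (adjusted p = 0.497).

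Chaperones and ER-associated degradation genes gave a similar picture. Of 31 tested, 0 passed, 20 had lower means in KO, and the median was −0.038, which turned to 0.01 when each array was centred on its own median. The main chaperone genes Hspa5 (BiP) and Hsp90b1 (GRP94) differed by 0.06 and 0.03. Pdia4, a disulfide isomerase, had the largest difference in the list, −1.19 (SE 0.40, adjusted p = 0.258), at 9.89, 9.81 and 11.24 in KO, against 11.09, 11.43 and 12 in WT. KO array 3 lay within the WT range there. Herpud1, of ER-associated degradation, read 12.91, 12.85 and 12.72 in KO, against 13.25, 12.96 and 13.30 in WT (−0.35, adjusted p = 0.19; −0.45 and 0.0363 without WT array 2), and Manf, a secreted ER stress protein, was lower by −0.24. Derl1, of the retrotranslocation channel, went the other way at 12.87, 12.86 and 12.82 in KO, against 12.60, 12.64 and 12.48 in WT (0.27, adjusted p = 0.158), while its 3 other probe sets were lower in KO.

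The promoter of Herpud1 is shown because its ER stress element is a textbook site of the unfolded protein response. The stretch lies before the start on chr8:94386347-94386417, plus strand, RefSeq build GRCm38.p6, with the ERSE-II match in capitals.
Herpud1: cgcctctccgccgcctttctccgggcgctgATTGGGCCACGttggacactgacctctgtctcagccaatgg
The letters searched on both strands were ATTGG, any base, CCACG. They occurred in 1 of 27 chaperone and degradation genes with a promoter in the table (3.7%), which is Herpud1, and in 0.0304% of all promoters.

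In sphingolipid metabolism itself, 33 genes were tested, 0 passed and 18 were higher in KO, with a median of 0.026, or −0.033 with the mean of each gene's probe sets. The arrays did not overlap in 4 of the 33 (12.1%, against 14.8% of all genes): Sgpp2, Sgpp1, Degs1 and Acer2. Sgpp1, the other S1P phosphatase, read 12.24, 12.38 and 12.35 in KO, against 12.04, 12.23 and 11.95 in WT (0.25, adjusted p = 0.266). Degs1, the desaturase that completes ceramide, read 12.85, 13.01 and 12.92 in KO, against 12.71, 12.71 and 12.67 in WT (0.23, adjusted p = 0.206). Acer2, a ceramidase of the Golgi that frees sphingosine, read 9.42, 9.87 and 9.71 in KO, against 9.22, 9.31 and 9.31 in WT (0.39, adjusted p = 0.206). The other probe set of Degs1 differed by −0.13 and that of Acer2 by 0.17. The kinases Sphk1 and Sphk2 differed by −0.03 and −0.30 and Sgpl1, the S1P lyase, by 0.00, with overlapping arrays.

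Of 11 genes of S1P receptors, exporters and carriers, 0 passed and 7 were lower in KO, with a median of −0.084, which was 0.021 without KO array 3 and 0.001 without WT array 1. Mfsd2b, an S1P exporter of blood cells, read 6.47, 6.58 and 6.39 in KO, against 6.93, 6.91 and 6.85 in WT (−0.41, SE 0.10, adjusted p = 0.158), and by 0.10 in its other probe set. S1pr1, the receptor best known from endothelium and lymphocytes, read 6.81, 6.45 and 6.83 in KO, against 7.22, 7.05 and 6.83 in WT (−0.34, adjusted p = 0.362). Endothelial markers lay lower beside them: 9 of 13 had lower means, the mean level of the list was 9.29, 9.23 and 9.15 in KO and 9.44, 9.30 and 9.31 in WT, and Pecam1 was lower by −0.40 and Cdh5 by −0.44. The part of these cells in the S1pr1 difference was not tested.

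Interferon response genes lay higher in KO on average. Of 36 genes of interferon response and antigen presentation 0 passed, 26 had higher means in KO, and the median was 0.170. At an unadjusted p under 0.05, 8 were higher and 0 lower, against 6.27% and 7.09% of all genes, and in 5 (13.9%, against 14.8%) the arrays did not overlap. Ifit1, which binds foreign RNA, read 9.62, 8.68 and 8.79 in KO, against 8.13, 8.69 and 7.71 in WT (0.85, SE 0.28, adjusted p = 0.252). Irgm1, a GTPase of cell-autonomous immunity, read 8.51, 8.44 and 8.37 in KO, against 8.28, 7.96 and 8.19 in WT (0.30, adjusted p = 0.288). Iigp1, a related GTPase, was higher by 0.83 and the chemokine gene Cxcl10 by 1.69 (adjusted p = 0.369). Cxcl10 varied most, with 10.32, 7.68 and 8.82 in KO, against 7.07, 8.51 and 6.19 in WT. Class I genes of antigen presentation lay near 0, as B2m differed by 0.03, H2-K1 by −0.07 and H2-D1 by −0.12.

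The interferon score was 0.36, 0.03 and −0.04 in KO and 0.06, −0.05 and −0.36 in WT, so that KO array 1 was highest and WT array 3 lowest and the other 4 arrays lay together. The median was 0.068 without KO array 1 and 0.080 without WT array 3. Lists of markers of T and NK cells had a mean level of 5.64, 5.38 and 5.43 in KO and 5.53, 5.45 and 5.30 in WT, near the filter, and 8 of 9 tested had higher means in KO. Macrophage markers had lower means in 11 of 12, against 56.7% of all genes. Their mean level was 8.64, 8.70 and 8.26 in KO and 8.76, 8.56 and 8.90 in WT. The median difference of these markers was −0.222, or −0.056 without KO array 3. The part of immune cells in the interferon difference was not tested.

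The promoters of Ifit1 and Irgm1 are shown because both hold pairs of interferon-stimulated response elements, the site that the STAT and IRF factors of the pathway bind. The letters searched on both strands were GAAA, any pair of bases, GAAA, in capitals below, in the stretch before the start on chr19:34640755-34640843 (plus strand) for Ifit1 and chr11:48871421-48871480 (minus strand) for Irgm1, RefSeq build GRCm38.p6; in Irgm1 the 2 matches overlap.
Ifit1: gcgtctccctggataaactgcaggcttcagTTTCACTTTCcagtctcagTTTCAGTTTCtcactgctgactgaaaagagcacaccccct
Irgm1: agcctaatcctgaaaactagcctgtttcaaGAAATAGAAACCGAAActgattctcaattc
They occurred in 12 of 28 genes of the list with a promoter in the table (42.9%) and in 2.98% of all promoters.

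**Figure D4:**
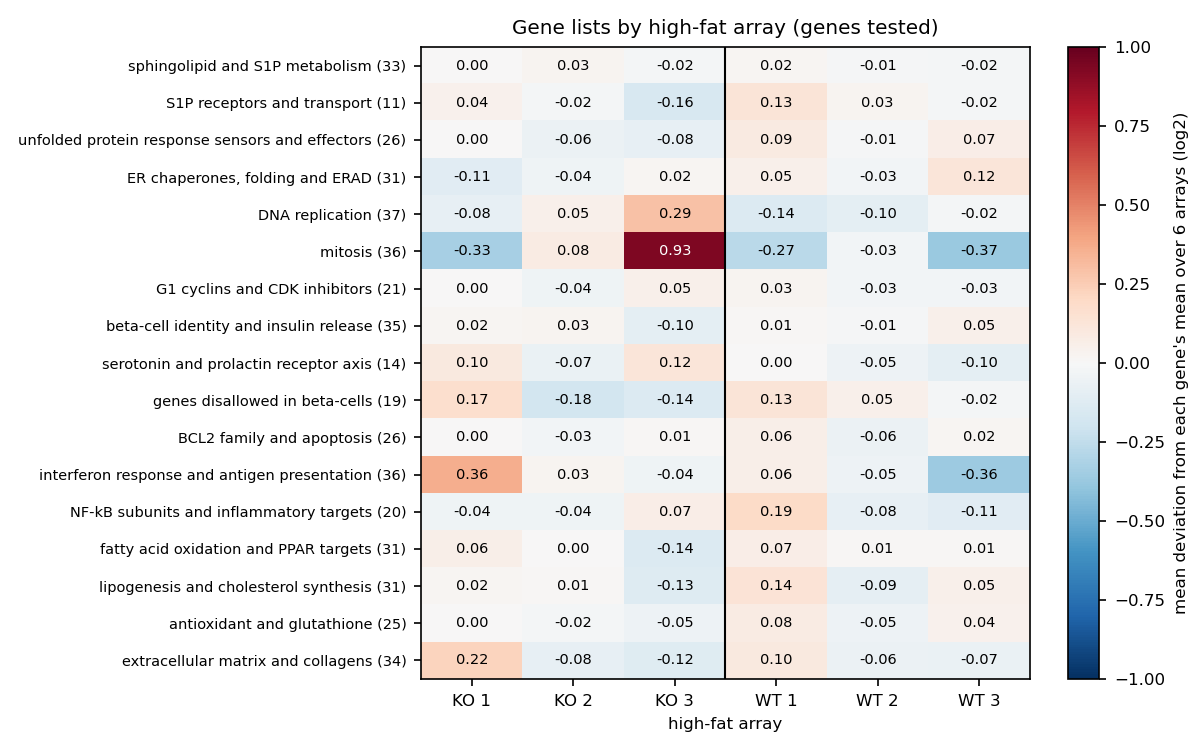
Score of each of the 17 functional lists on each high-fat array: how far the tested genes of a list lay on average from their own 6-array means (log2, colour and printed value), with KO arrays left of WT arrays and the number of genes in brackets. The strongest colour is KO array 3 for mitosis, 0.93; outside the mitosis list the strongest of the lists shown are those of the interferon list, with 0.36 on KO array 1 and −0.36 on WT array 3.

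Genes of β-cell identity and insulin release differed in both directions, with a median near that of all genes. Of 35 tested 0 passed and 20 had lower means in KO, and the median was −0.030, beside −0.029 over all genes, or 0.019 with each array centred on its own median. In 9 of the 35 (25.7%) the arrays did not overlap, against 14.8% of all genes. Of these, 5 were higher (7.31% of all genes) and 4 lower (7.52%) in KO. Neurod1, a factor of insulin gene transcription, read 12.67, 12.76 and 12.79 in KO, against 12.40, 12.60 and 12.55 in WT (0.22, adjusted p = 0.266). Nnat was lower by −0.46 with no overlap (adjusted p = 0.286), and by −0.65 on the normal diet. Foxa2 was lower by −0.30 with overlapping arrays (adjusted p = 0.278). Nkx6-1, a factor of β-cell identity, read 11.42, 11.43 and 10.96 in KO, against 11.65, 11.38 and 11.77 in WT (−0.33, adjusted p = 0.369). Ins2 differed by −0.10, Pdx1 by 0.13, the glucose transporter gene Slc2a2 by −0.06 and the channel gene Kcnj11 by −0.04, all with overlapping arrays. Tph2, which makes serotonin, read 6.84, 7.59 and 7.78 in KO, against 6.95, 6.4 and 6.02 in WT (0.95, adjusted p = 0.209), while Tph1 lay below the filter.

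Among metabolic lists, fatty acid oxidation had opposed members. Of 31 tested 0 passed and 22 were lower in KO, with a median of −0.099. Hadhb, of the mitochondrial trifunctional protein, read 12.40, 12.41 and 12.30 in KO, against 11.66, 12.04 and 11.89 in WT (0.51, SE 0.11, adjusted p = 0.142; 0.59 and 0.0361 without WT array 2). Its other probe sets differed by −0.17 and 0.02, and its partner Hadha by −0.21. Acadl, the long-chain acyl-CoA dehydrogenase and a neighbour of Sgpp2, read 10.38, 10.68 and 10.08 in KO, against 11.19, 11.11 and 10.71 in WT (−0.62, SE 0.17, adjusted p = 0.172). Of 31 genes of lipogenesis and cholesterol synthesis 0 passed and 20 were lower, and Insig2, which holds back sterol synthesis, was higher by 0.43 (adjusted p = 0.144; 0.52 and 0.0348 without WT array 2), but lower in its 2 other probe sets, at −0.12 and −0.24. Of 25 antioxidant genes 0 passed and 14 were lower, led by Gclm, of glutathione synthesis, at −0.47 (adjusted p = 0.19; −0.61 and 0.0385 without WT array 2), while its other probe set was higher by 0.18.

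Of 34 tested genes of extracellular matrix, Col6a3 fell, 0 rose and 18 had higher means, and the basement membrane gene Nid1 was higher by 0.29 (adjusted p = 0.352), and its other probe sets differed by 0.14 and −0.25. Stromal markers lay higher in KO in 10 of 13, with a mean level of 9.08, 8.80 and 8.79 in KO and 8.91, 8.79 and 8.54 in WT; Pdgfrb, a pericyte receptor, was higher by 0.42 (adjusted p = 0.158), and differed by −0.05 in its other probe set. Of 26 apoptosis genes 0 passed and 13 were higher, with the survival gene Mcl1 at 0.25. Of 20 genes of NF-kB and inflammation 0 passed and 9 were higher, and of 19 genes disallowed in β-cells 0 passed and 6 were higher. Acinar markers were higher in KO in 13 of 17 with a median of 0.049, or −0.039 without WT array 2, and their mean level was 12.86, 12.86 and 12.79 in KO and 12.99, 12.53 and 12.91 in WT, lowest on WT array 2.

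Some of the largest differences came from genes that varied within a genotype. Apoa4, an apolipoprotein of intestinal fat absorption, read 8.22, 8.07 and 8.09 in KO, against 11.69, 8.54 and 9.79 in WT (−1.88, SE 0.72, adjusted p = 0.31). Lct, the intestinal lactase, read 6.2, 6.24 and 6.0 in KO, against 9.92, 6.17 and 7.77 in WT, and on the normal diet 8.04, 5.92 and 5.96 in KO, against 5.81, 6.17 and 5.93 in WT. High values thus stood on WT high-fat array 1, less so on WT high-fat array 3, and on KO normal array 1. Apoc3 and Apoc2 differed by −1.61 and −1.46 in the same way, and Lgals2, a galectin of the gut epithelium, by −1.34 (6.30, 5.68 and 6.08 in KO, 8.03, 6.93 and 7.12 in WT). A list of 20 genes of absorptive cells of the small intestine was drawn up after these values were seen: 16 were tested, 13 had lower means in KO, the median was −0.774, and the score was −0.24, −0.46 and −0.48 in KO and 1.18, −0.35 and 0.35 in WT. Without WT array 1 the median was −0.333. Whether tissue of another organ reached these samples was not tested.

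The Reg genes, secreted C-type lectins that acinar cells and regenerating islets make, mostly had higher means in KO. Reg2 read 11.69, 10.09 and 10.44 in KO, against 9.25, 8.12 and 8.83 in WT, with no overlap (2.01, SE 0.63, 4.03-fold, adjusted p = 0.226). Reg3b read 9.62, 8.75 and 9.74 in KO, against 8.59, 7.18 and 7.90 in WT (1.48, SE 0.77, adjusted p = 0.428), and its other probe set was higher by 2.33. On the normal diet Reg2 differed by −0.52, and its interaction with the diet did not pass (adjusted p = 0.922). Of the 7 genes of the family, also listed after their values were seen, 6 had higher means in KO on the high-fat diet. The median was 0.266, or 0.178 without WT array 2, where the list lay lowest. Reg3a, Reg3g and Reg4 differed by 0.18, 0.16 and −0.04, with overlapping arrays. Zfp982, a zinc finger gene, and Cttnbp2, a cortactin-binding protein of neurons, were the other large differences upward, at 1.31 (adjusted p = 0.105; 1.51 and 0.0341 without WT array 2) and 1.19 (adjusted p = 0.158). The other probe sets of Zfp982 differed by 0.43 and −0.19 and that of Cttnbp2 by −0.07.

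**Figure D5:**
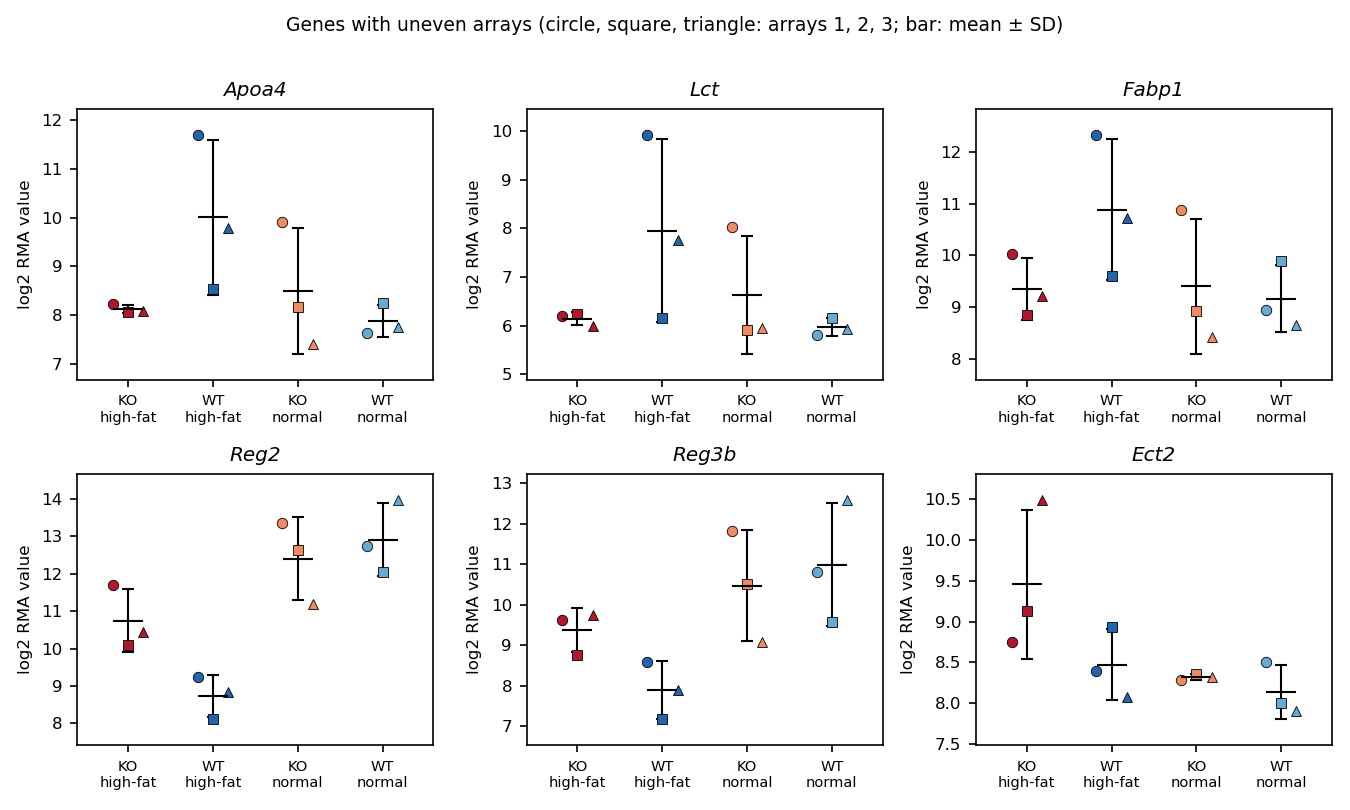
Log2 RMA value (vertical axis) of 6 genes on each array, with KO left of WT for each diet; symbols are arrays 1 to 3 and bars the mean ± SD of 3 arrays. Apoa4, Lct and Fabp1 are highest on WT high-fat array 1, Ect2 is highest on KO high-fat array 3, and Reg2 and Reg3b are lower on the high-fat WT arrays than on the high-fat KO arrays.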

How the data were processed

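The 12 arrays, 3 for each genotype and diet, were hybridised from 4 µg of total RNA extracted with Trizol, per the labels' protocols. The deposited table holds log2 values that the authors made by RMA, the background correction, quantile normalization and summary of Affymetrix probes, in Partek 6.6, per the submitters' processing notes. RMA draws low signals together, so folds of dim genes may be understated. The table holds 45101 probe sets, its values run from 2.6 to 15.3 and its array medians from 7.0 to 7.13; intensities carry no read depth, and the number of arrays limits the precision. Gene names came from the platform annotation: 34945 probe sets name 1 gene, 932 several and 9160 none, and 64 are controls.

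Each gene was read by its single-gene probe set with the highest mean over the 12 arrays. Genes with a log2 value above 5 on at least 3 arrays were tested. A linear model with 1 mean per group was fitted over all 12 arrays (limma 3.58.1, R 4.3.3, lmFit and eBayes), which gives 8 residual degrees of freedom, and p-values were adjusted by the Benjamini-Hochberg method over all 15237 genes. The script was tested on simulated data with known changes. Tables and figures were made with Python 3.11.15, pandas 2.3.3 and matplotlib 3.10.9.

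Genes were named by a rule: all that passed; then those with the smallest p and no overlap of arrays, up to 24; then the 6 largest differences each way with an unadjusted p under 0.05 and no overlap; then up to 3 per list with the smallest p; and Sgpp2. Symbols that are clone, Gm or Rik numbers were skipped. Distances from Sgpp2 count protein-coding genes in RefSeq order. The comparison, its gene lists and this rule were chosen with earlier results of these data known, and the intestinal and Reg lists after their values were seen.

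Alternatives were median centring, cyclic loess, the mean of probe sets, every probe set, other filters, array weights, a trended robust prior, the 6 high-fat arrays alone, each array left out, and the replicate number as a block. Same-numbered KO and WT high-fat arrays did not deviate together (r = −0.05, −0.51 and −0.35), so the fit given has no block. Same-numbered KO arrays of the 2 diets did (r = 0.29, 0.38 and 0.14), and WT arrays did not (r = 0.05, 0.1 and −0.16), so the block over both diets is given beside the calls it ends.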

Additional observations from a re-analysis of the deposited data

Results flagged for a closer look

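The comparison by gene leaves out probe sets that name no single gene. When all 35426 probe sets above the filter were tested, 17 of the 96 that passed had no single gene name, a signal outside the genes reported. A further 58 belong to named genes that another probe set represents, so the comparison by gene leaves those out too. Of the 17, the one with the smallest adjusted p was 1441580_at, which read 4.54, 4.82 and 4.59 on the KO arrays and 7.25, 7.21 and 7.70 on the WT arrays (adjusted p = 1.84e-05). Its KO values lie below the filter of 5, where low signals are drawn together, so that the deposited log2 difference of −2.74 is not an exact size. On the normal diet it read 4.37, 4.37 and 4.71 in KO, against 7.16, 7.20 and 7.39 in WT. The probe sets 1458035_at and 1447124_at differed by −2.35 and −2.37, and 1443850_at by 0.69.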

How the results depend on the processing

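With 3 arrays a group, the count of genes that passed depended on the processing and on single arrays. Against 4 on the high-fat diet and 128 on the normal diet, array weights gave 7 and 1175, every probe set 96 and 476, median centring 8 and 194, and a trended robust prior 63 and 336. The high-fat arrays alone gave 0 (limma; 13.4% of genes had an unadjusted p under 0.05 over all 12 arrays), cyclic loess 6, a filter at 6 6, and the mean of probe sets 4 and 69. Leaving out 1 array gave 0 to 272 on the high-fat diet, 0 without KO array 2 and 272 without WT array 2, and 2 to 223 on the normal diet. Sgpp2 ran from −0.44 to −0.39 when single arrays were left out and was −0.37 with median centring, its smallest size. It passed without WT array 2, and with the trended robust prior at −0.42 (adjusted p = 0.0396). The interaction gave 0 throughout. Causes were not tested.

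The replicate block, with 1 number over both diets, left 2 genes on the high-fat and 9 on the normal diet, Armc9 and D2hgdh on the high-fat (adjusted p = 0.027 for both), with Mcm4 at an adjusted p = 0.057, Col6a3 at 0.0526 and Sgpp2 at 0.162. A block within each diet left 0 and 5. The numbers are not shown to pair the arrays.

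The sign turned in few genes. With the mean of probe sets, Armc9 differed by −0.10, Derl1 by −0.03, Ghr by −0.06, Pdx1 by −0.01, Dpp4 by 0.16, Epcam by 0.03 and Kdm5d by −0.03. Pyy read 0.0 and Lpl 0.01 with median centring, and Lpl 0.05 with array weights. With 1 array left out, Irx2 ranged from −0.26 to 0.01, Lpl from −0.12 to 0.04 and Alb from −0.36 to 0.06. In all, 14 of these values turned sign, 2619 kept direction and side of the threshold, 68 passed where they had not, and 36 no longer passed.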
